A study of Brassica napus with 12 samples.

Results

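This report describes 66 of the 998 genes listed in the deposited tables, which were nearly silent in well-watered flowers of the rapeseed (Brassica napus) genotype G67 and were read in its flowers under drought. They were chosen by their own G67 values, with a mean below 0.5 FPKM over the 3 control libraries and a mean of at least 1 FPKM over the 3 drought libraries. FPKM is a level in sequenced fragments that is scaled to the length of the transcript and to the size of the library. Of the 6 candidate phenolic genes that were left out by name, 1 (UGT89B1, a flavonol glucosyltransferase, LOC106430142) met both limits. The study sampled flowers of 2 rapeseed cultivars, G67 with high and G59 with low phenolic content. The plants stood in greenhouse pots, where drought soil was kept at a relative water content of 10% with 20% PEG6000 and control soil at 30% with sterile water. This makes 4 groups of 3 libraries, G67 drought, G67 control, G59 drought and G59 control. PEG6000 is a polyethylene glycol, a polymer that binds water. Each content class is thus represented by 1 cultivar. The methods say that the experiment was repeated 3 times but also speak of 4 cDNA libraries, so p-values measure only the spread between these libraries, which may be technical.

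Plants short of water make the hormone abscisic acid, which closes stomata and, through kinases and transcription factors, turns on genes that are hardly transcribed in watered tissue. Among the best known products of such genes are dehydrins and other late embryogenesis abundant proteins, enzymes for compatible solutes, lipid transfer proteins and water channels. Flowers are among the organs most sensitive to drought, and phenolics made by the phenylpropanoid pathway act there as antioxidants. The identifiers of the 66 genes carry no gene names in the files, the paper or the table used for names, so that none of these roles can be given to any of them. For the same reason the labelled tissue could not be checked against marker genes, and lists of dehydrins, transporters, transcription factors and other classes could not be filled. Of the 66, 64 have NCBI numbers and 2 have other names. In the RefSeq gene table of the assembly Da-Ae, which is not the Darmor-bzh reference used for mapping, 52 (78.8%) were found, 51 as protein-coding genes and LOC106348546 as a long non-coding RNA, although the files list it as mRNA. As under 80% had a match, a comparison of gene length with the other listed genes is void.

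Over the whole series, 22 of the 998 listed genes were at 0 in all 3 G67 control libraries and 81 had a control mean below 0.5 FPKM in G67. Read counts are not among the values, so the depth of a single library is unknown. The listed FPKM summed to 39158 to 43412 in the G67 drought libraries and 45469 to 51160 in the G67 control libraries, and to 3439 to 5267 in the G59 drought libraries and 883 to 1059 in the G59 control libraries. These sums cover part of each library only.

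In G67 the 66 genes had a median of the group means of 2.58 FPKM under drought and of 0.13 FPKM under control, against 11.5 and 9.96 FPKM over all listed genes. They stayed weakly expressed for the most part, with 28 at 1 to 2 FPKM under drought, 25 at 2 to 5, 8 at 5 to 10 and 5 at 10 or more. Since these values chose the genes, they are a description and were not tested. In control, 17 genes were listed at 0 in all 3 libraries, 8 in 2 of them, 8 in 1 of them, and 33 had a value above 0 in each. The genes at 0 have no ratio of drought to control. Among the 49 with a ratio of the means, it ran from 4.03 to 3109, with a median of 15.4. In flower samples, fewer cells of a type and less RNA per cell cannot be told apart.

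Taken library by library, the 66 genes were near silent in each control library and less even under drought. Their median was 1.55, 2.045 and 2.77 FPKM in drought replicates 1, 2 and 3, against 0.055, 0.08 and 0.145 FPKM in control replicates 1, 2 and 3. Under drought, 50, 60 and 63 of the 66 genes had at least 1 FPKM in replicates 1, 2 and 3, and under control 0, 1 and 1 did. The lowest drought value of a gene came from replicate 1 in 44 genes, from replicate 2 in 15 and from replicate 3 in 7. The 3 drought libraries lay wholly above the 3 control libraries in 65 of the 66 genes. This holds for 42.7% of all listed genes in that direction, and nothing is read from it, since the rule used the same libraries. In 34 genes every drought library was at 1 FPKM or more and every control library below 0.5 FPKM.

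**Figure D1:**
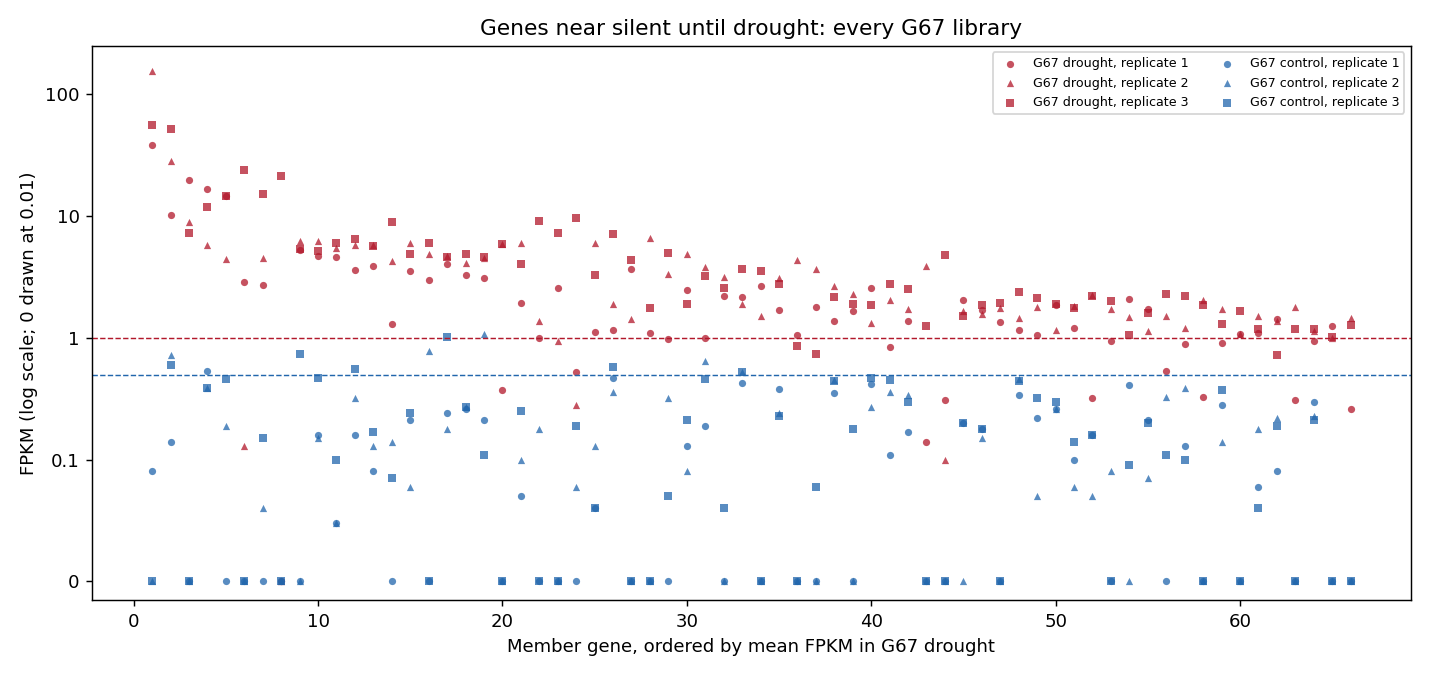
FPKM of the 66 genes in each G67 library, on a log scale with 0 drawn at 0.01, ordered from the highest to the lowest mean under drought. Red points are drought libraries and blue points control libraries, with a marker per replicate, and the dashed lines are the limits of 1 and 0.5 FPKM. Drought points lie above control points in 65 genes, and most drought points below the red line belong to replicate 1.

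As a description of how evenly the G67 libraries carried the rule, the genes were also chosen on 2 replicate numbers and read in the remaining pair of libraries. All these libraries had entered the choice of the 66 genes, so this is no independent support. With replicate 1 held out, 63 genes were chosen, and 44 of them (69.8%) met both limits in its own pair of libraries. With replicate 2 held out, 49 of 67 (73.1%) did, and with replicate 3 held out, 52 of 68 (76.5%) did. The drought library was above the control library of the held-out pair in 62, 66 and 68 of these genes. Over all listed genes, 5.91%, 6.21% and 6.81% met both limits in the pairs of replicates 1, 2 and 3, and 43.6%, 43.2% and 43.4% were higher in the drought library. Same-numbered G67 libraries deviated from their group means together, with correlations across genes of 0.438, 0.190 and 0.194. For replicate 1 the drought limit was missed more often than the control limit (47 and 60 of 63 genes met them), and for replicate 3 the control limit was missed more often (65 of 68 genes met the drought limit, against 55 that met the control limit). These shares describe the 998 listed genes, which are part of the genes of the genome.

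The gene with the highest level was LOC106349612, at 38.4, 154 and 55.9 FPKM in the drought libraries, against 0.08, 0 and 0 FPKM in the control libraries. Its drought mean of 82.9 ± 62.6 FPKM (SD, n = 3) was more than that of any other of the 66, and replicate 2 was its highest library. Its ratio to control of 3109 rests on the single control value of 0.08 FPKM. LOC106354022 had 10.3, 28.2 and 51.8 FPKM under drought, against 0.14, 0.73 and 0.6 FPKM under control, which puts it just inside the control limit. Together these 2 genes made up 23.4%, 49.0% and 27.3% of the summed FPKM of the 66 genes in drought replicates 1, 2 and 3. Without them the sums were 159, 190.1 and 287 FPKM, so that replicate 3 had the highest sum and replicate 1 the lowest.

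Of the other 3 genes at 10 FPKM or more under drought, LOC106352328 was at 0 in all 3 control libraries. It had 19.7, 8.97 and 7.28 FPKM under drought. LOC106348448 had 16.7, 5.84 and 11.9 FPKM under drought, against 0.53, 0.39 and 0.39 FPKM under control. In both, replicate 1 was the highest drought library, which was so in only 9 of the 66 genes. LOC106353697 had 14.7, 4.44 and 14.6 FPKM under drought, against 0, 0.19 and 0.46 FPKM under control. In all 3 genes every drought library lay above every control library.

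A second set of genes was more even between the drought libraries. LOC106345480 had 5.29, 6.3 and 5.4 FPKM under drought, against 0, 0 and 0.74 FPKM under control. LOC106348125 had 4.73, 6.26 and 5.15 FPKM under drought, against 0.16, 0.15 and 0.47 FPKM under control. Their coefficients of variation (SD over mean) under drought were 9.78% and 14.7%, and 17 of the 66 genes were below 25%. LOC106354462 had 4.59, 5.49 and 6.02 FPKM under drought, against 0.03, 0.03 and 0.1 FPKM under control. BNAA06G11320D had 3.6, 5.84 and 6.54 FPKM under drought, against 0.16, 0.32 and 0.56 FPKM under control, and it is 1 of the 2 genes without an NCBI number. Its coefficient of variation under drought was 28.8%, beside 13.5% for LOC106354462. In all 4 genes every drought library lay above every control library.

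**Figure D2:**
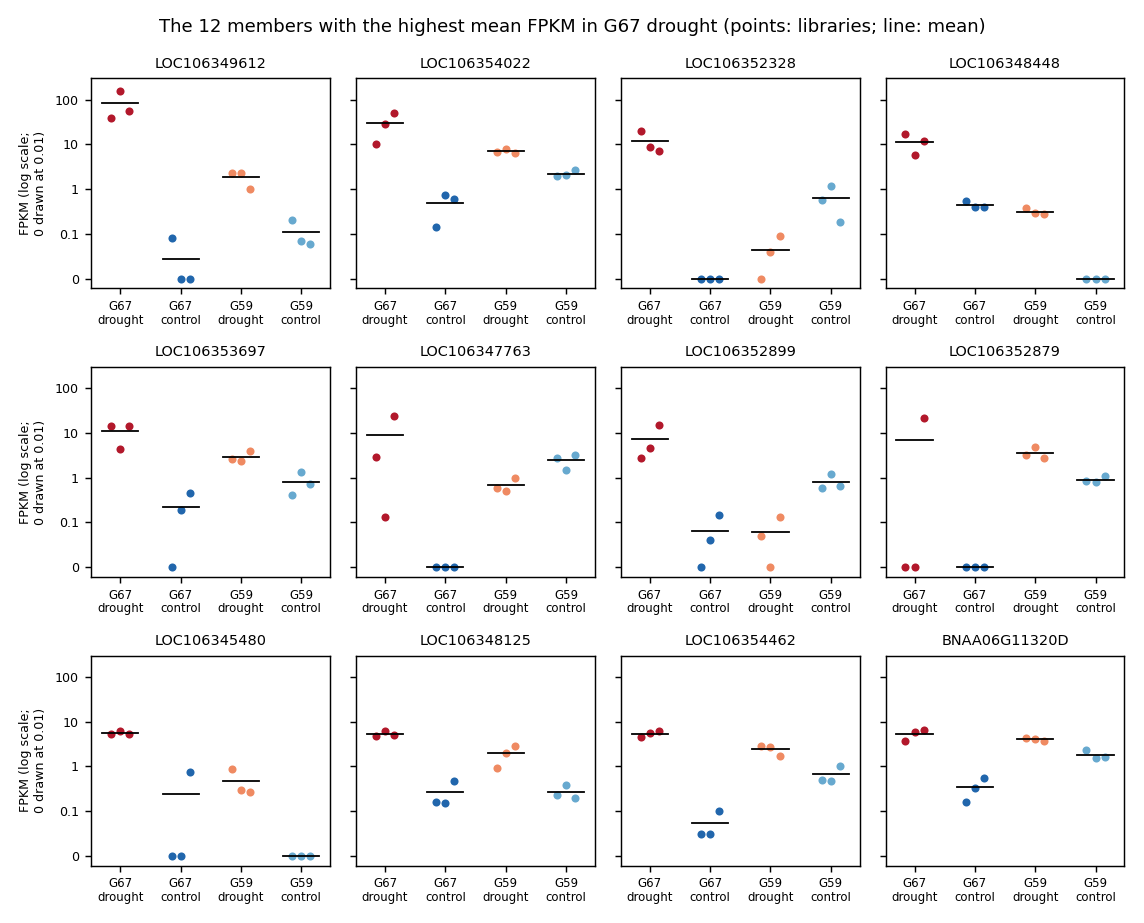
FPKM in all 12 libraries, on a log scale with 0 drawn at 0.01, of the 12 genes with the highest mean in G67 drought. Points are libraries and lines are group means. LOC106349612, LOC106354462 and LOC106348125 were higher under drought in both genotypes, while LOC106352328, LOC106347763 and LOC106352899 were lower under drought in G59, and LOC106352879 owes its G67 mean to 1 library.

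Other genes passed the drought limit mainly through 1 library. In 11 of the 66, more than 66.7% of the summed drought FPKM came from a single library, which was replicate 3 in 8 genes and replicate 2 in 3. LOC106352879 is the clearest case, with drought values of 0, 0 and 21.2 FPKM and no control library above 0. It is the only gene of the 66 whose drought and control libraries overlapped. LOC106347763 had 2.88, 0.13 and 24 FPKM under drought and no control value above 0, and LOC106352899 had 2.74, 4.57 and 15.1 FPKM under drought, against 0, 0.04 and 0.15 FPKM under control. LOC106352222 had 0.52, 0.28 and 9.72 FPKM under drought, against 0, 0.06 and 0.19 FPKM under control. LOC106346022 had 0.31, 0.1 and 4.81 FPKM under drought and was at 0 under control. In these genes replicate 3 stood far above the other drought libraries. Without drought replicate 3, 62 of the 66 genes still met the limits, and LOC106352879, LOC106352222, LOC106346022 and LOC106353625 did not.

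Replicate 2 had the same role in fewer genes. LOC106346130 had 0.14, 3.92 and 1.25 FPKM under drought and was at 0 under control. LOC106350412 had 0.37, 5.91 and 5.89 FPKM under drought and was also at 0 under control, so that replicate 1 alone was low. LOC106348892 with 0.33, 2.04 and 1.87 FPKM, LOC106348462 with 0.31, 1.81 and 1.19 FPKM and LOC106345570 with 0.32, 2.25 and 2.22 FPKM under drought had the same low replicate 1. The spread between drought libraries was not particular to the 66 genes. Their median coefficient of variation was 38.8%, beside 33.6% in the 72 listed genes that had at least 0.5 FPKM in control and were at least 4 times higher under drought, with a median drought mean of 11.5 FPKM. In those 72 genes, too, replicate 3 was most often the highest drought library (43 genes) and replicate 1 least often (6 genes), beside 31 and 9 of the 66.

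The limits of the rule cut through a continuous range. Just inside the control limit lay LOC106347199 and LOC106354022, both with a control mean of 0.49 FPKM, and LOC106352726 with 0.48 FPKM. LOC106352726 had 4.05, 4.73 and 4.62 FPKM under drought, against 0.24, 0.18 and 1.02 FPKM under control, and LOC106349442 had 3.08, 4.5 and 4.64 FPKM under drought, against 0.21, 1.08 and 0.11 FPKM under control. These are the 2 genes with a control library above 1 FPKM. Just outside the limit were LOC106348153 and LOC106354254, each at 0.503 FPKM, and LOC106353216 at 0.517 FPKM, with drought means of 4.08, 5.69 and 5.28 FPKM. Just inside the drought limit were LOC106353625 at 1.0 FPKM and LOC106348303 and LOC106349113, both at 1.09 FPKM. Just outside it were LOC106352822 at 0.937 FPKM, LOC106349720 at 0.83 FPKM and LOC106349859 at 0.813 FPKM.

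The rule that chose the 66 genes did not use the G59 libraries, and these show how the same rows read in the low-phenolic genotype. They can be set beside G67 only if each row stands for 1 gene in both sets of files. Over the 998 listed genes the group means under drought did not rank together between the genotypes (Spearman's rho across genes 0.00891, and 0.0403 over the 66), which puts this in doubt. In G59 the median of the group means of the 66 genes was 1.93 FPKM under drought and 0.515 FPKM under control, beside 1.98 and 0.627 FPKM over all listed genes. Of the 66, 49 had a lower mean in G67 control than in G59 control, 14 a higher one and 3 were at 0 in both, while 12.1% of all listed genes had a lower mean in G67 control. Under drought, 42 had a higher mean in G67 than in G59 and 24 (36.4%) a lower one, while 16.5% of all listed genes had a lower one. The rule fixes low G67 control values, so these counts carry no test.

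Drought and control were compared in G59 with limma on log2(FPKM + 1), fitted to all 12 libraries, and p-values were adjusted over the 998 genes by the Benjamini-Hochberg method. A call needed an adjusted p no higher than 0.05 and a change of at least 1 on that scale, which understates the change of low genes. Of the 66 genes, 31 (47.0%) were called higher under drought in G59 and 2 (3.03%) lower, beside 47.3% and 6.71% of all 998 listed genes. The standard errors pool all 4 groups, so the G67 libraries that chose the genes enter these p-values. In a fit of the 2 G59 groups alone 33 were called higher and 3 lower, beside 474 and 68 of the 998. LOC106352879 was called higher in that fit (adjusted p = 0.00169 in limma) and not in the main fit (adjusted p = 0.178 in limma). The median log2 change was 1.01 over the 66 and 0.98 over all listed genes. The 3 drought libraries lay wholly above the 3 control libraries in 54 of the 66 genes (78.3% of all listed genes) and wholly below them in 12 (19.7% of all listed genes). With 3 libraries against 3, an exact permutation test cannot give a p below 0.1. The shares of the 66 genes thus lay near those of all listed genes in both directions. Nearly all listed genes had G59 libraries apart in 1 direction or the other, so separation in G59 is no trait of the 66. The list may itself have been chosen on this contrast, which could not be checked. The calls and p-values of the 66 are therefore no independent support for the choice, and cannot be read as those of unselected genes.

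The counts moved with the scale, for the 66 and for the listed genes alike. With median-ratio scaling of the 12 libraries, which lowered the median log2 change of all listed genes by 0.42, 24 of the 66 genes were called higher and 12 lower (34.4% and 19.4% of all listed genes). All 12 called lower were the genes whose drought libraries lay wholly below the control libraries in the FPKM as deposited. Of the 31 genes called higher, 19 were called higher after this scaling too, and 15 after quantile normalization, where 15 were called higher and 13 lower (26.1% and 21.9% of all listed genes). With a pseudocount of 0.1 in place of 1, 51 were called higher and 10 lower (74.9% and 17.4% of all listed genes).

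**Figure D3:**
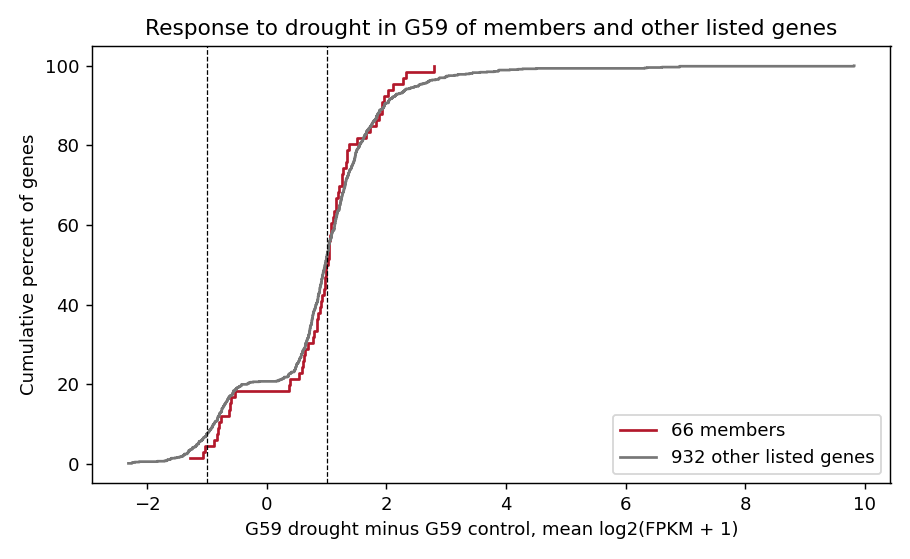
Cumulative percent of genes by the difference of mean log2(FPKM + 1), G59 drought minus G59 control, for the 66 genes (red) and the other 932 listed genes (grey), with dashed lines at -1 and 1. The 2 curves run close together, with medians of 1.01 over the 66 genes and 0.98 over all listed genes.

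The genes with the largest called rises in G59 on log2(FPKM + 1) are given next, and their order depends on the pseudocount. With a pseudocount of 0.1, genes outside the 5 described next had log2 changes above the 3.04 of LOC106349314. Among them were LOC106353625, LOC106352222, LOC106348303 and LOC106349612, with 4.26, 3.82, 3.51 and 3.21. LOC106351824 had 9.09, 6.62 and 8.94 FPKM in G59 drought, against 0.48, 0.35 and 0.14 FPKM in G59 control, and 2.48, 4.88 and 1.9 FPKM in G67 drought, against 0.13, 0.08 and 0.21 FPKM in G67 control. Its log2 change in G59 was 2.80 with a standard error of 0.24 (limma, adjusted p = 1.81e-06). LOC106349314 had 11.3, 8.06 and 9.3 FPKM in G59 drought, against 1.13, 0.68 and 1.54 FPKM in G59 control, and 2.21, 3.18 and 2.55 FPKM in G67 drought, against 0, 0 and 0.04 FPKM in G67 control. It thus had a lower level in G67 under both conditions, and its log2 change in G59 was 2.33 with a standard error of 0.19 (limma, adjusted p = 1.13e-06). LOC106347199 was at 0 in all 3 G59 control libraries and had 5.63, 6.77 and 1.23 FPKM in G59 drought, while G67 had 2.15, 1.91 and 3.69 FPKM under drought, against 0.43, 0.52 and 0.52 FPKM under control. LOC106353527 had 2.81, 4.89 and 2.56 FPKM in G59 drought and was at 0 in G59 control, and in G67 it had 1.67, 2.3 and 1.9 FPKM under drought, against 0, 0 and 0.18 FPKM under control. LOC106352278 had 2.51, 5.42 and 6.59 FPKM in G59 drought, against 0.9, 0.07 and 0.24 FPKM in G59 control, and in G67 it had 2.59, 0.95 and 7.21 FPKM under drought and was at 0 under control. In these 5 genes every drought library of both genotypes lay above every control library of the same genotype.

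Several of the genes with the highest G67 levels were among the 31. LOC106349612 had 2.29, 2.29 and 1.03 FPKM in G59 drought, against 0.2, 0.07 and 0.06 FPKM in G59 control, and its log2 change was 1.34 with a standard error of 0.39 (limma, adjusted p = 0.00652). Its level under drought in G59 was thus far below the 38.4 to 154 FPKM of G67, for which it was named. Over all listed genes the median of the group means under drought was also lower in G59, at 1.985 FPKM against 11.5 FPKM in G67. The difference between the genotypes was not tested. LOC106354022, LOC106353697, LOC106348125 and LOC106354462 rose in G59 as well, with log2 changes of 1.33, 1.12, 1.16 and 1.04. With median-ratio scaling or quantile normalization none of these 4 was called, and their log2 changes were 0.29 to 0.94. LOC106349612 kept its call with median-ratio scaling and lost it after quantile normalization, at 0.79 (adjusted p = 0.131 in limma). Some calls rested on 1 library, since LOC106353697 had a change of 0.95 without drought replicate 3 and of 0.96 without control replicate 1, and LOC106348125 had 0.93 without drought replicate 3. LOC106354462 had 0.95 to 0.97 without replicate 1 or 2 of either G59 group. LOC106348448 was at 0 in all G59 control libraries and had 0.37, 0.29 and 0.28 FPKM in G59 drought, and it was not called. LOC106345480 had 0.89, 0.29 and 0.26 FPKM in G59 drought and was at 0 in G59 control, and BNAA06G11320D had 4.33, 4.13 and 3.66 FPKM in G59 drought, against 2.31, 1.51 and 1.66 FPKM in G59 control. Neither was called. With a pseudocount of 0.1 LOC106348448, LOC106345480 and BNAA06G11320D were all called higher, with log2 changes of 2.04, 2.37 and 1.12 (adjusted p = 0.000116, 0.00539 and 0.00819 in limma).

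In 22 of the 66 genes (33.3%) G59 met the same limits as G67, with a control mean below 0.5 FPKM and a drought mean of at least 1 FPKM. Over all listed genes, 317 (31.8%) did so in G59, so the 22 are 6.94% of them, where the 66 are 6.61% of the listed genes. In G59 control 14 of the 66 genes were at 0 in all 3 libraries, against 212 of all listed genes. The 3 genes described next, named after their values were seen, were at 0 in all 6 control libraries of both genotypes. LOC106350412 had 0.37, 5.91 and 5.89 FPKM in G67 drought and 1.76, 1.93 and 0.15 FPKM in G59 drought. LOC106348934 had 2.69, 1.51 and 3.54 FPKM in G67 drought and 1.66, 2.03 and 0.51 FPKM in G59 drought. LOC106353625 had 0.26, 1.47 and 1.27 FPKM in G67 drought and 2.59, 1.98 and 1.16 FPKM in G59 drought. These genes had a value above 0 in all 6 drought libraries.

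In G67 the rule fixed higher values under drought, and 12 of the 66 genes (18.2%) had lower ones in G59, with libraries that did not overlap. This share is near the 19.7% of all listed genes, so it is not a result about the 66. Of the 12, 10 were not called lower. An adjusted p of at most 0.05 in limma was reached by 7 of the 12, and only 2 of these also fell by at least 1. Of the 12 genes, 11 had a mean of at least 0.5 FPKM in G59 control. The median of the G59 control means of the 12 was 0.942 FPKM, against 0.363 FPKM in the 54 genes that were higher. Nothing is read from this, since the split used the same control values and a gene lower under drought cannot be at 0 in control. The G67 drought means of the 12 ran from 1.09 to 12.0 FPKM, with a median of 2.53 FPKM, beside 2.58 FPKM in the 54 others. The 2 called lower in G59 are given first. LOC106348813 had 0, 0.21 and 0 FPKM in G59 drought, against 0.68, 1.98 and 2.49 FPKM in G59 control, and 1.29, 4.31 and 8.91 FPKM in G67 drought, against 0, 0.14 and 0.07 FPKM in G67 control. Its log2 change in G59 was -1.28 with a standard error of 0.42 (limma, adjusted p = 0.0124). LOC106349442 had 0.17, 0.08 and 0.31 FPKM in G59 drought, against 0.44, 2.67 and 1.85 FPKM in G59 control, and fell by 1.06 on the log2 scale with an adjusted p of 0.00877 in limma (standard error 0.33). Both calls depended on single libraries, and without G59 control replicate 3 neither was made (log2 changes of -1.07 and -0.96, adjusted p = 0.0525 and 0.0336 in limma). LOC106349442 was not called without drought replicate 2 or control replicate 2 of G59 either (adjusted p = 0.0283 and 0.0452 in limma, with changes short of the limit), and 1 gene was then called lower.

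Of the other 10, named here after their values were seen except where they are among the 12 of highest level or the genes near the limits, 3 were at 0 in all G59 drought libraries. LOC106348702 had 0.38, 0.85 and 1.08 FPKM in G59 control, LOC106348168 had 0.92, 0.56 and 0.87 FPKM and LOC106345570 had 0.24, 0.43 and 0.73 FPKM. LOC106349113 had 0.08, 0.09 and 0.13 FPKM in G59 drought, against 0.55, 1.21 and 1.42 FPKM in G59 control, whereas in G67 it had 1.25, 0.99 and 1.02 FPKM under drought and was at 0 under control. LOC106347763 had 0.59, 0.5 and 0.97 FPKM in G59 drought, against 2.79, 1.47 and 3.31 FPKM in G59 control, and its log2 change of -1.03 was not called (adjusted p = 0.209 in limma, standard error 0.77). The standard error pools all 4 groups, and in G67 its drought libraries ran from 0.13 to 24 FPKM. In the fit of the 2 G59 groups alone the adjusted p in limma was 0.00662. LOC106352328 had 0, 0.04 and 0.09 FPKM in G59 drought, against 0.56, 1.15 and 0.18 FPKM in G59 control, and LOC106352899 had 0.05, 0 and 0.13 FPKM in G59 drought, against 0.6, 1.2 and 0.67 FPKM in G59 control. Neither was called on log2(FPKM + 1), and both were called lower with a pseudocount of 0.1 (log2 changes of -2.15 and -2.56, adjusted p = 0.00152 and 0.00108 in limma).

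**Figure D4:**
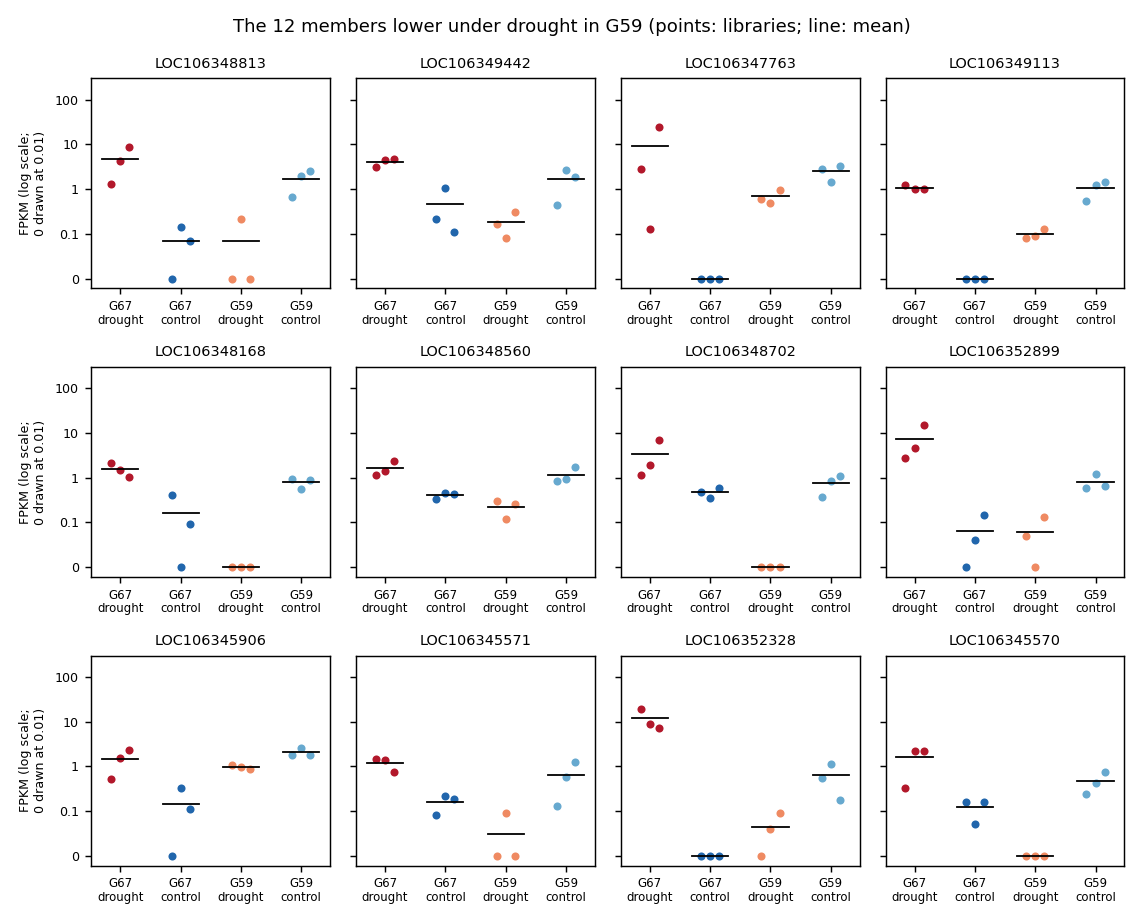
FPKM in all 12 libraries, on a log scale with 0 drawn at 0.01, of the 12 genes whose 3 drought libraries lay wholly below the 3 control libraries in G59. Points are libraries and lines are group means. In each panel the G67 drought mean lies above the G67 control mean, as the rule requires, and the G59 drought mean lies below the G59 control mean.

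Some of the 66 genes are neighbours in the gene order of the Da-Ae table, and were named for that after their values were seen. How often other listed genes lie as close was not counted, so nothing is read from these positions. LOC106354024 and LOC106354026 follow each other with no gene between them, and LOC106354022 lies 3 genes away from the first. LOC106354024 had 1.37, 1.72 and 2.54 FPKM in G67 drought, against 0.17, 0.34 and 0.3 FPKM in G67 control. LOC106354026 had 2.97, 4.89 and 6.04 FPKM in G67 drought, against 0, 0.78 and 0 FPKM in G67 control. All 3 were highest in drought replicate 3 and lowest in drought replicate 1. In G59 LOC106354024 had 7.52, 7.99 and 5.81 FPKM under drought, against 1.84, 4.32 and 4.03 FPKM under control, and LOC106354026 had 2.26, 1.7 and 1.09 FPKM under drought, against 0.61, 0.56 and 0.43 FPKM under control. Neither was called in G59, with log2 changes of 0.93 and 0.79. LOC106354023, a listed gene in the same stretch that was expressed in both conditions of G67, had means of 15.9 FPKM in G67 drought and 5.44 FPKM in G67 control, and of 3.03 FPKM in G59 drought and 0.07 FPKM in G59 control.

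LOC106354462 and LOC106354464 are also direct neighbours. LOC106354464 had 3.3, 4.13 and 4.9 FPKM in G67 drought, against 0.26, 0.27 and 0.27 FPKM in G67 control. In G59 LOC106354464 had 6.46, 6.51 and 4.14 FPKM under drought, against 2.07, 3.28 and 1.33 FPKM under control, and both genes rose there (log2 changes of 1.04 and 1.08, adjusted p = 0.000413 and 0.00121 in limma). LOC106345570 and LOC106345571 have 1 gene between them, and both were in the set with lower G59 values under drought. LOC106345571 had 1.43, 1.37 and 0.73 FPKM in G67 drought, against 0.08, 0.22 and 0.19 FPKM in G67 control, and 0, 0.09 and 0 FPKM in G59 drought, against 0.13, 0.57 and 1.23 FPKM in G59 control. Neither of this pair was called in G59 on log2(FPKM + 1). The files do not say how reads that fit near-identical neighbours were assigned, so the values of such genes are uncertain.

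**Figure D5:**
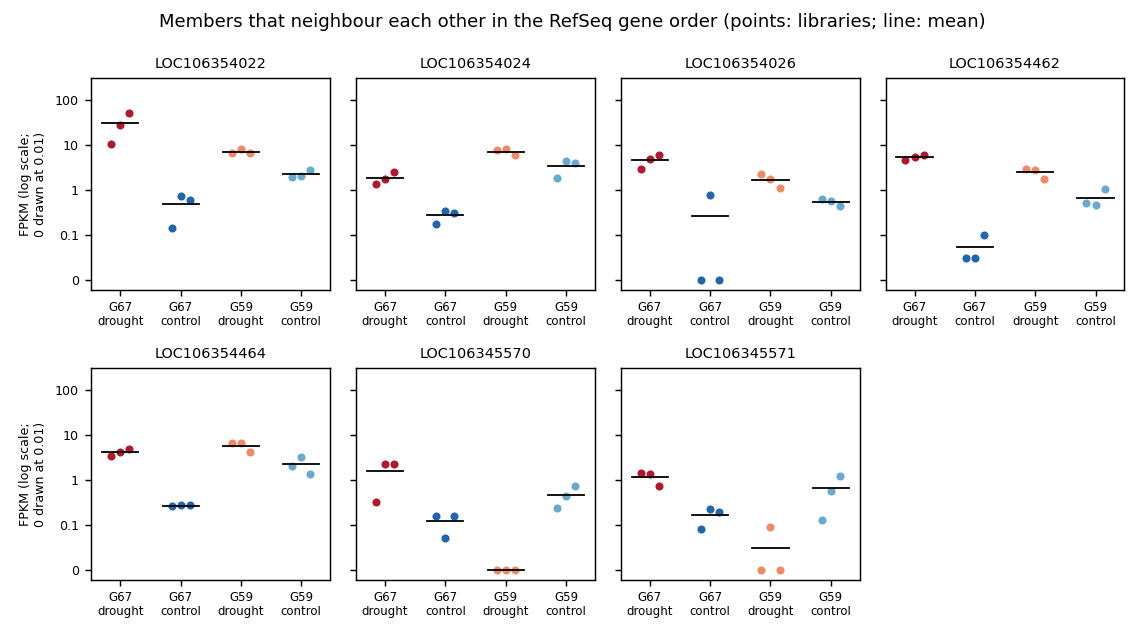
FPKM in all 12 libraries, on a log scale with 0 drawn at 0.01, of 7 genes that neighbour another of the 66 in the RefSeq gene order. Points are libraries and lines are group means. For LOC106354022 to LOC106354464 the drought points lie above the control points in both genotypes, although LOC106354024 and LOC106354026 were not called in G59. For LOC106345570 and LOC106345571, also not called there, they lie above in G67 and below in G59.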

How the data were processed

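Flowers of 2 genotypes under 2 treatments gave 12 libraries. The authors filtered the reads (NGS QC toolkit 2.2.3), mapped them to Darmor-bzh (the aligner is not given in the sources used here) and ran Cuffquant and Cuffnorm (Cufflinks 2.0.0) to obtain the deposited FPKM values. The deposited table of the G67 libraries holds the same values as the library files (5988 of 5988). Its columns of group means and of the ratio of drought to control, the authors' own comparison, were not used. Groups and replicate numbers came from the labels.

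The members, lists and tests were chosen with earlier results of these data known. G67 values chose the members and were not tested. G59 drought and control were compared on log2(FPKM + 1) values in limma 3.58.1 (R 4.3.3), each group having its own coefficient, over all 998 genes with no filter, and tested on simulated data. Alternatives were pseudocounts, a filter, scalings, fits of G59 alone, with an intensity trend or with the replicate number as a block, other limits and leaving out libraries. The genes named were the 12 highest in G67 drought, the 3 nearest to each limit on either side, up to 5 with the largest rise and fall in G59, and those with a G67 control library above 1 FPKM or a drought library below 0.5 FPKM. Others are said to be chosen later. Lists by description, sequence motifs and protein comparisons were planned and not run, as the tables used hold no descriptions or sequences. Summaries used Python 3.11.15, numpy 2.4.6, pandas 2.3.3 and matplotlib 3.10.9.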

Additional observations from a re-analysis of the deposited data

Results flagged for a closer look

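In 12 of the 66 genes every G67 drought library lay above every G67 control library and every G59 drought library lay below every G59 control library. The G67 direction was fixed by the choice of the genes, and the difference between the genotypes was not tested. The log2 changes in G59, drought minus control, were -1.28 for LOC106348813, -1.06 for LOC106349442, -1.03 for LOC106347763, -0.88 for LOC106349113, -0.83 for LOC106348168 and -0.81 for LOC106348560. They were -0.80 for LOC106348702, -0.77 for LOC106352899, -0.63 for LOC106345906, -0.62 for LOC106345571, -0.60 for LOC106352328 and -0.54 for LOC106345570. Of the 12, 10 were not called lower in G59, and 7 had an adjusted p of at most 0.05 in limma. Of all listed genes, 19.7% had G59 libraries apart in this direction. Whether each row stands for the same gene in both genotypes is in doubt, as said above.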

How the results depend on the processing

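Of the 66 genes, 31 were called higher under drought in G59. The count was 51 and 49 with pseudocounts of 0.1 and 0.01, 15 after quantile normalization, 47 with the adjusted p alone, and 24 to 34 with each G59 library left out. The 2 called lower became 10 and 10 with these pseudocounts, 12 with median-ratio scaling, 13 after quantile normalization, 7 with the adjusted p alone and 1 with the adjusted p limit at 0.01, and 0 to 3 with each library left out. The count of 0, without G59 control replicate 3, is from limma, and no other tool was run. In that fit 7 of the 66 were lower at an unadjusted p under 0.05. At an adjusted p of at most 0.05 there were 6, all short of the limit of 1 on the log2 change. BNAA06G11320D turned to log2 changes of -0.14 (median-ratio) and -0.46 (quantile), LOC106346022 to -0.49 and -1.71 under the same scalings, and LOC106352726 to -0.29 (quantile). The cause was not tested. With the replicate block, 33 (474) were called higher and 3 (68) lower in the fit of the 2 G59 groups, as without the block. In the fit over the 4 groups 31 (473) and 2 (67) were. Same-numbered libraries deviated together in G67 (correlations of 0.438, 0.190 and 0.194) and not in G59 (0.0097, -0.0078 and -0.132). In G59 no drought library correlated best with its own number, which was not checked in G67.

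The 66 genes became 99 and 47 with control limits of 1 and 0.25 FPKM, 74 and 38 with drought limits of 0.5 and 2 FPKM, and 34 with every single library inside the limits. They numbered 62 to 72 without each G67 library in turn. With median-ratio scaling of the 12 libraries, which divided the G67 values by 2.72 to 3.07, 65 genes met the limits, 30 of them among the 66. With scaling within G67, chosen after seeing the data, 73 did, including all 66. The filter on a mean of 1 FPKM left 47 of the 66 genes to test. With unknown depth, values near 0 have no counting interval here.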
